A study of Homo sapiens with 12 samples.

Results

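Proteasome genes were taken from the deposited expression table as every protein-coding row whose symbol is PSM followed by a letter from A to G and a number, which gave 48 of 58302 genes. The table comes from RNA sequencing of 3 established prostate cell lines, with 4 libraries each of BPH-1, labelled as a benign prostate cell line, and of DU145 and PC3, both prostate cancer (PCa) cell lines. Every line carries the label WT, no treatment is given in the labels, and all were grown in Dulbecco's modified Eagle's medium with serum and antibiotics. The labels do not say whether the 4 libraries of a line came from separate cultures, so p-values measure the spread between these libraries, which may be technical. Library depth ranged from 12950667 to 16309559 reads, and values are FPKM, which divides the reads of a gene by its length and by the depth of the library. Among 5 epithelial markers, 5 were at 0.5 FPKM or more in at least 1 library of BPH-1 and of PC3 and 4 in DU145, where EPCAM and CDH1 stayed at or under 0.57 and 0.30 FPKM. KLK3, the gene of prostate-specific antigen, was at 0 in every library, so this defining marker of luminal prostate cells was absent in all 3 lines.

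The proteasome is the barrel-shaped protease that degrades proteins tagged with ubiquitin. Its core particle stacks rings of alpha subunits (PSMA genes), which gate the entrance, on rings of beta subunits (PSMB genes), which carry the active sites. The regulatory particle (19S) binds and unfolds substrates with a base of ATPases (PSMC genes) and a lid (most PSMD genes), while activators (PSME genes) and the inhibitor PSMF1 bind the ends of the core. Under interferon, the catalytic subunits PSMB5, PSMB6 and PSMB7 can be replaced in newly built cores by PSMB8, PSMB9 and PSMB10, which gives the immunoproteasome, a form known for producing peptides that are presented by major histocompatibility complex class I. PSME1 and PSME2 form an activator that is induced by the same signal.

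The promoters of the interferon-inducible members are shown first because PSMB8, PSMB9, PSMB10 and PSME2 were the genes lower in PC3 than in BPH-1 in every alternative fit described further on. RefSeq start-site windows on GRCh38.p14, which run from 250 bases before to 50 bases after the start, were found for 42 of the 48 genes (51 windows). The core of the interferon-stimulated response element, written as GAAA, any 2 bases and GAAA again, was searched on both strands. Its letters hold none of the other motifs searched. It was present in 7 of the 51 windows (13.7%) and in 3.57% of all 35116 windows. The 7 genes were PSMB8, PSMB10, PSME1, PSME2, PSMA4, PSMB4 and PSMG4. A stretch of 30 bases around the motif, with the motif in capitals, is given for the 4 of them that belong to the immunoproteasome or its activator, and for TAP1, the peptide transporter gene that shares an upstream region with PSMB9. They lie at chr6:32844032-32844061 (PSMB8, minus strand), chr16:67936852-67936881 (PSMB10, minus strand), chr14:24136189-24136218 (PSME1, plus strand), chr14:24146619-24146648 (PSME2, minus strand) and chr6:32853819-32853848 (TAP1, minus strand). The motif is read as its reverse complement in PSMB8, PSME1 and TAP1. The TAP1 stretch holds 2 matches that overlap, and the capitals cover both.
PSMB8: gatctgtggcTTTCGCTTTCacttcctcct
PSMB10: gggtaaaggcGAAAGCGAAAgcaggaagta
PSME1: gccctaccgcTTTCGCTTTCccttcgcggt
PSME2: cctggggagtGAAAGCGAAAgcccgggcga
TAP1: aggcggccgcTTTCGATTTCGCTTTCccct

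PSMB9 and TAP1 are transcribed in opposite directions, with 487 bases between their start sites. The 250 bases before the PSMB9 start (chr6:32853942-32854191, plus strand) do not hold this motif and hold 2 GC boxes (GGGCGG, in capitals).
PSMB9: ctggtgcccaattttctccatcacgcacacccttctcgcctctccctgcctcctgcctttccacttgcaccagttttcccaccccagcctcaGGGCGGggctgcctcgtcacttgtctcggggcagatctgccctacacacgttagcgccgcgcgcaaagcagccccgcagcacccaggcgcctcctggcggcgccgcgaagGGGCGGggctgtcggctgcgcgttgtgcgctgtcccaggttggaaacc

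Across the members, 3 other short motifs were counted on both strands in the same windows. TGACNNNGC, the core of the antioxidant response element, which the proteasome regulators NFE2L1 and NFE2L2 bind, was in 15 of 51 member windows (29.4%) and 13.3% of all windows. The CCAAT box was in 39.2% of member windows and 34.6% of all, and the GC box (GGGCGG) in 68.6% and 45%. These matches describe letters in a window and not binding.

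Of the 48 genes, 46 passed the filter of 0.5 FPKM in at least 4 of the 8 libraries in each comparison, and PSMA8 and PSMB11 did not. PSMA8, a core subunit of the testis, had 0 reads in every library, which allows up to 3 reads per library, or 0.0624 to 0.0786 FPKM over the libraries. PSMB11, the catalytic subunit of thymus epithelium, had 2 reads in PC3 replicate 4 (0.0732 FPKM) and 0 reads elsewhere, which is under 3 reads too. The summed FPKM of the members was 0.397% ± 0.0143 of the library's FPKM in BPH-1, 0.408% ± 0.0791 in DU145 and 0.334% ± 0.0557 in PC3 (SD, n = 4), with ranges that overlapped between all 3 lines.

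The 14 constitutive core subunits are built into the particle in equal number, yet their FPKM spanned a range of 10.8-fold in BPH-1, 24.6-fold in DU145 and 16.5-fold in PC3. In BPH-1 the lowest was PSMA2 (8.18 ± 0.55 FPKM, SD, n = 4) and the highest PSMB7 (87.9 ± 8.4). Among the members of the 19S particle, PSMC6 was the lowest in each line. The highest was PSMD3 in BPH-1, PSMD4 in DU145 and PSMD2 in PC3. The 19S genes ADRM1 and SEM1 have no PSM symbol and are not ranked here. Levels compared between genes depend on the gene length, for which the values fit the sum of all distinct exons rather than of merged exons. With merged exons the core subunits spanned 11.6-fold, 24.1-fold and 17.6-fold, and the order changed in BPH-1. There PSMA7 was the highest core gene, and among the 19S members PSMC1 was the lowest and PSMD2 the highest. The 19S genes named for DU145 and PC3 were the same with either length.

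Some libraries stood apart from others of their own line before any lines were compared. In DU145, replicates 1 and 3 differed from replicates 2 and 4, and in PC3 replicate 4 differed from replicates 1 to 3. The difference varied with the GC content of the genes and, over the members, with transcript length (Spearman's rho -0.527 in DU145 and -0.376 in PC3). Of the 16 members with GC content under 45%, 12 were lower in DU145 replicates 1 and 3 than in 2 and 4 (median log2 difference -0.51), and of the 18 with at least 50%, 17 were higher (median 0.53). For PC3 replicate 4 against replicates 1 to 3, 10 of the 16 were lower (median -0.19) and 16 of the 18 higher (median 0.48). Spearman's rho of this difference with GC content was 0.735 over the 46 members and 0.661 over all genes in DU145, 0.575 and 0.519 in PC3, and -0.171 and -0.178 for BPH-1 replicates 1 and 3 against 2 and 4. Genes are not independent replicates, and all points share their libraries. Within DU145, 9 of the 46 members spanned more than 2-fold over the 4 libraries, against 2 in BPH-1 and 2 in PC3.

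**Figure D1:**
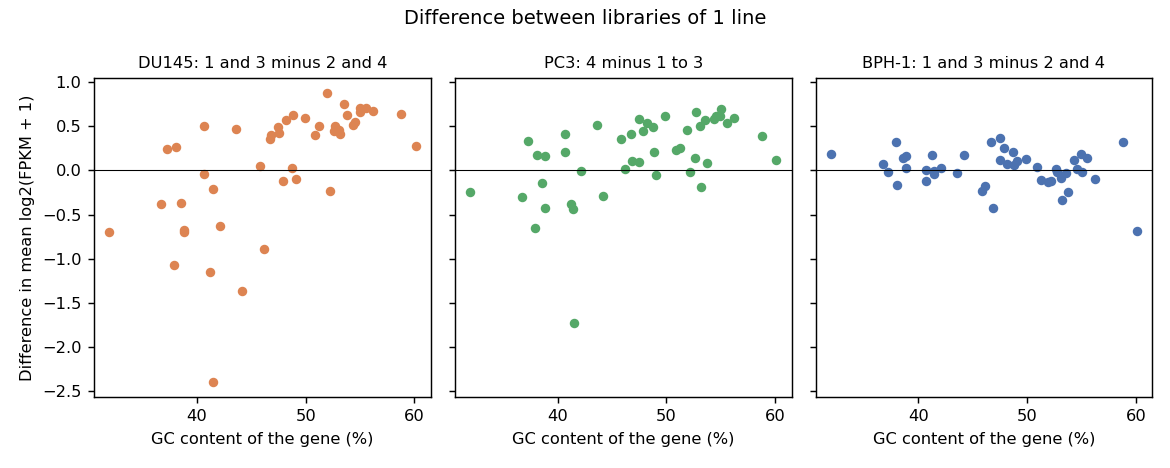
Each point is 1 of the 46 proteasome genes tested, plotted by its GC content (%) against the difference in mean log2(FPKM + 1) between libraries of the same line, with DU145, PC3 and BPH-1 in separate panels. Points rise from left to right in DU145 (rho 0.735) and PC3 (rho 0.575) but not in BPH-1 (rho -0.171).

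The widest spread was that of PSME4, which encodes an activator of the nuclear proteasome. Its FPKM in DU145 replicates 1 to 4 was 0.973, 8.05, 0.541 and 8.32, a range of 15.4-fold, and in PC3 it was 6.16, 8.12, 4.94 and 1.21, a range of 6.73-fold. BPH-1 libraries lay between 12.6 and 14.1, above every library of the other lines. The low values were thus those of the libraries that stand apart.

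Differences from BPH-1 varied with GC content as well. Spearman's rho between log2 fold change and GC content over all genes tested was 0.465 for PC3 against BPH-1, 0.478 for DU145 against BPH-1 and -0.0779 for PC3 against DU145, and over the 46 members it was 0.324, 0.473 and -0.344. Each comparison was therefore repeated with the trend on GC content divided out of each library. This ended or turned 11 of the 26 calls in PC3 against BPH-1 (PSMA3, PSMA4, PSMA7, PSMC6, PSMD5, PSMD6, PSMD7, PSMD12, PSMD14, PSME4 and PSMG3), 12 of the 29 in DU145 against BPH-1 (PSMA2, PSMA3, PSMA4, PSMB7, PSMC4, PSMD6, PSMD10, PSMD11, PSMD12, PSMD14, PSME4 and PSMG3) and 3 of the 20 in PC3 against DU145 (PSMB4, PSMB7 and PSMD6). Whether the trend comes from the libraries or the cells was not tested. A setting that removes it also removes a real difference that follows GC content. It also moved the members with GC content under 45% past 0. Their median log2 fold change went from -0.31 to 1.03 in PC3 against BPH-1. In DU145 against BPH-1 it went from -0.71 to 0.70. Values with the trend divided out are therefore given as an alternative and not as corrected levels.

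In PC3 against BPH-1, 26 of the 46 members tested passed a limma adjusted p of 0.05, with 9 higher and 17 lower in PC3. Over all 15848 genes tested 64.1% passed, 26.5% higher and 37.6% lower, so the members' share was near that of the background and is no result about the members. The median log2 fold change was -0.13 over the members and -0.11 over all genes. Groups did not overlap for 27 of the 46 members and for 62.7% of all genes. The balance of directions depended on scaling, with 2 higher and 26 lower after rescaling to the same sum, 16 and 9 with upper-quartile scaling, 16 and 9 with the GC trend divided out, and 16 and 13 with trends on GC content and length divided out. Rescaling to the same sum moved the median of all genes to -0.30, and upper-quartile scaling moved it to 0.16. A single fit over the 3 lines ended 7 of the 26 calls, those of PSMA6, PSMA7, PSMB1, PSMD12, PSME1, PSME3 and PSME4, with limma adjusted p from 0.0501 to 0.0894. Among the 16 members with GC content under 45%, 2 were higher and 8 lower, and among the 18 with at least 50%, 4 were higher and 4 lower.

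In DU145 against BPH-1, 29 of the 46 passed, 13 higher and 16 lower in DU145, against 59.3% of all 16367 genes tested (28.7% higher, 30.6% lower). The medians were -0.17 over the members and -0.02 over all genes, and groups did not overlap for 26 members and 56.4% of all genes. With upper-quartile scaling the split was 17 and 11, with the GC trend divided out 17 and 12, and with GC content and length 17 and 13. The members' share was again near the background. The median of all genes moved to -0.19 with the same sum, -0.16 with median-of-ratios scaling and 0.16 with upper-quartile scaling. Of the 16 members with GC content under 45%, 1 was higher and 10 lower, and of the 18 with at least 50%, 7 were higher and 3 lower.

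In PC3 against DU145, which compares the cancer lines directly, 20 of the 46 passed, 7 higher and 13 lower in PC3, against 45.8% of all 15423 genes tested (19.3% higher, 26.5% lower). The medians were 0.00 and -0.04, and groups did not overlap for 18 members and 43.8% of all genes. The split became 8 and 7 with upper-quartile scaling 11 and 12 with the GC trend divided out, and 14 and 14 with GC content and length. Fewer were higher (4) without PC3 replicate 1 or without PC3 replicate 2, and fewer were lower (8) without DU145 replicate 1 or without PC3 replicate 2. The comparisons of PC3 and of DU145 with BPH-1 share the BPH-1 libraries, so their values are given side by side and not as repeats of each other.

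**Figure D2:**
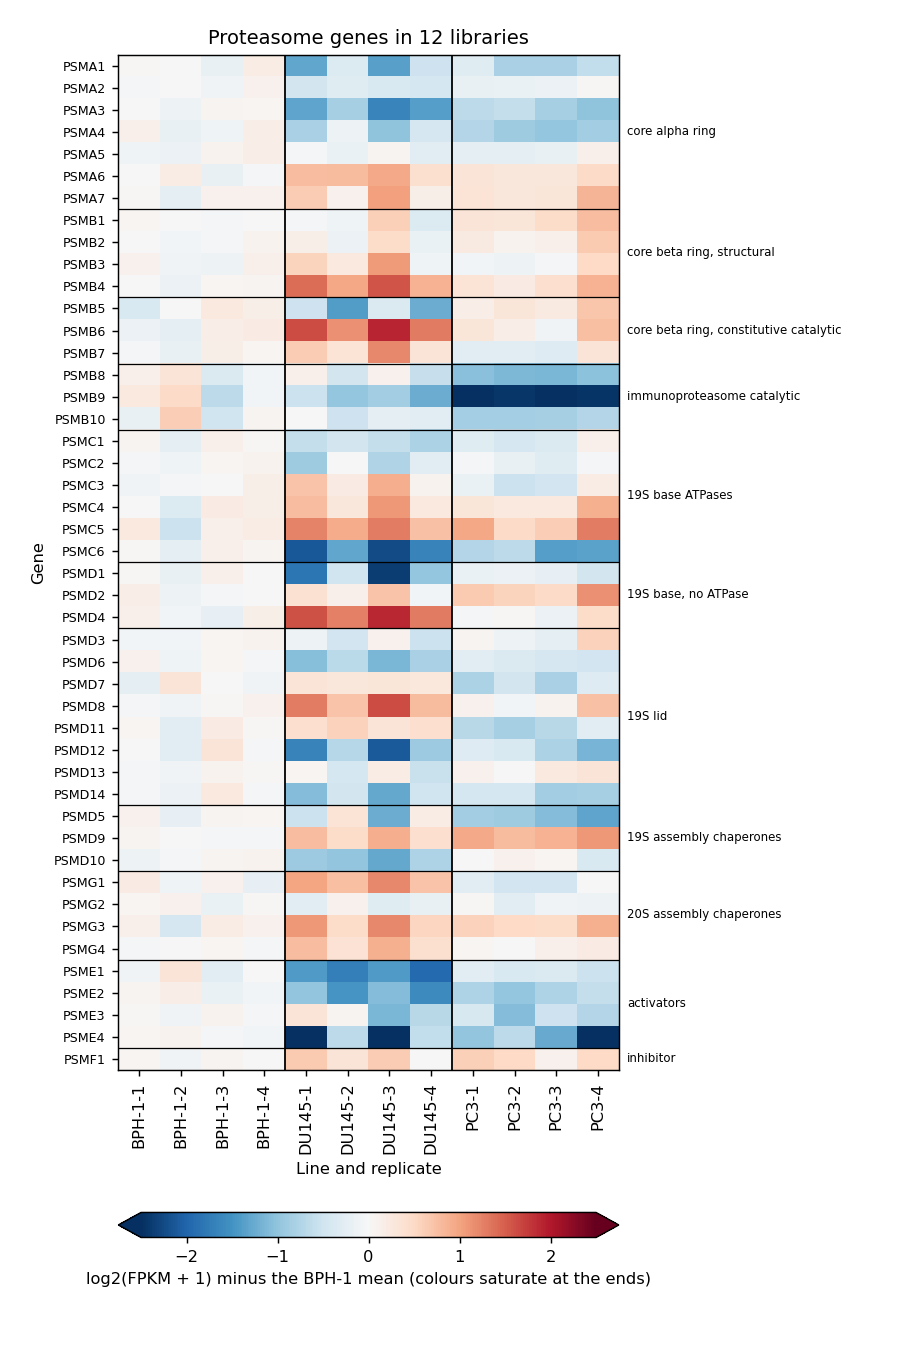
Colour shows log2(FPKM + 1) of each of the 46 genes tested minus its BPH-1 mean, with 12 libraries as columns (line and replicate) and genes in rows by role. PSMB8, PSMB9 and PSMB10 are blue in all 4 PC3 columns, and the DU145 columns alternate, replicates 1 and 3 being stronger in colour than 2 and 4 for PSME4, PSMD1 and PSMD12.

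The immunoproteasome subunits were lower in PC3 than in BPH-1 (3 of 3, where 37.6% of all genes were lower), and each passed in every alternative fit it entered, scalings and the GC trend included. PSMB9 (ENSG00000240065, chromosome 6, 32844136 to 32859585), the interferon-inducible partner of PSMB6, had an FPKM of 10.1, 12.2, 4.97 and 8.0 in BPH-1 replicates 1 to 4. In DU145 it was 5.5, 3.85, 4.19 and 3.0, and in PC3 0.481, 0.751, 0.587 and 0.721, which rests on 26 to 43 reads per library. Every PC3 library was below every library of the other lines, while the highest DU145 library lay above the lowest of BPH-1. The mean was 13.9-fold lower in PC3 than in BPH-1 (log2 fold change -2.53, standard error 0.23, limma adjusted p = 2.19e-05). The fitted change is smaller than this fold because 1 is added to each FPKM before the logarithm. PC3 was also below DU145 (log2 fold change -1.63, standard error 0.16, limma adjusted p = 5.32e-05), and DU145 below BPH-1 (log2 fold change -0.90, standard error 0.26, limma adjusted p = 0.0144). The last call was lost with upper-quartile scaling (-0.64) and without DU145 replicates 2 and 4 (-0.70). In BPH-1, PSMB8, PSMB9, PSMB10, PSME1 and PSME2 were each highest in replicate 2 and lowest in replicate 3, a pattern chosen after the values were seen.

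PSMB8 (ENSG00000204264, chromosome 6, 32840717 to 32844703), which takes the place of PSMB5, had an FPKM of 20.96, 24.2, 14.7 and 18.3 in BPH-1. DU145 libraries had 21.02, 13.7, 20.8 and 12.6, and PC3 libraries 8.79, 8.24, 8.12 and 8.94. DU145 overlapped BPH-1, and PC3 lay below both. The fit gave log2 fold change -1.09, standard error 0.14, limma adjusted p = 0.000211 for PC3 against BPH-1 and log2 fold change -0.89, standard error 0.19, limma adjusted p = 0.00405 for PC3 against DU145. Between DU145 and BPH-1 no difference was detected as deposited (log2 fold change -0.20, standard error 0.22, limma adjusted p = 0.459), whereas with the GC trend divided out the value was -0.64 and passed. PSMB8 and PSMB9 lie on opposite strands and share 139 exon bases, and whether reads were assigned by strand is not stated.

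PSMB10 (ENSG00000205220, chromosome 16, 67934502 to 67937087), the counterpart of PSMB7, was the lowest of the catalytic genes in BPH-1, at 3.14, 6.23, 2.32 and 3.92 FPKM. It was 3.74, 2.29, 2.97 and 2.91 in DU145 and 1.61, 1.61, 1.64 and 1.85 in PC3, where the 4 libraries were close together and below all others. PC3 was lower than BPH-1 (log2 fold change -0.81, standard error 0.21, limma adjusted p = 0.00931) and than DU145 (log2 fold change -0.56, standard error 0.14, limma adjusted p = 0.0103), the latter in 19 of 20 alternative fits, all but upper-quartile scaling (-0.49). DU145 did not differ detectably from BPH-1 as deposited (log2 fold change -0.26, standard error 0.24, limma adjusted p = 0.384), and with the GC trend divided out it was lower (-0.69). It shares 644 exon bases with AC040162.1 on the same strand, a gene under 1 FPKM on average in each line. The immunoproteasome is the usual form in leukocytes, and of 4 leukocyte markers PTPRC moved in the same order, at 1.15 to 1.54 FPKM in BPH-1, 0 to 1.35 in DU145 and 0 in PC3. CD3E was at 0 in every library, MS4A1 was at or under 0.0482, and CD68 ran the other way with means of 4.71, 6.17 and 10.9. The summed level of the 4 was 4.86 to 8.16 in BPH-1, 5.06 to 9.95 in DU145 and 6.86 to 13.5 in PC3, and their part in the result was not tested.

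**Figure D3:**
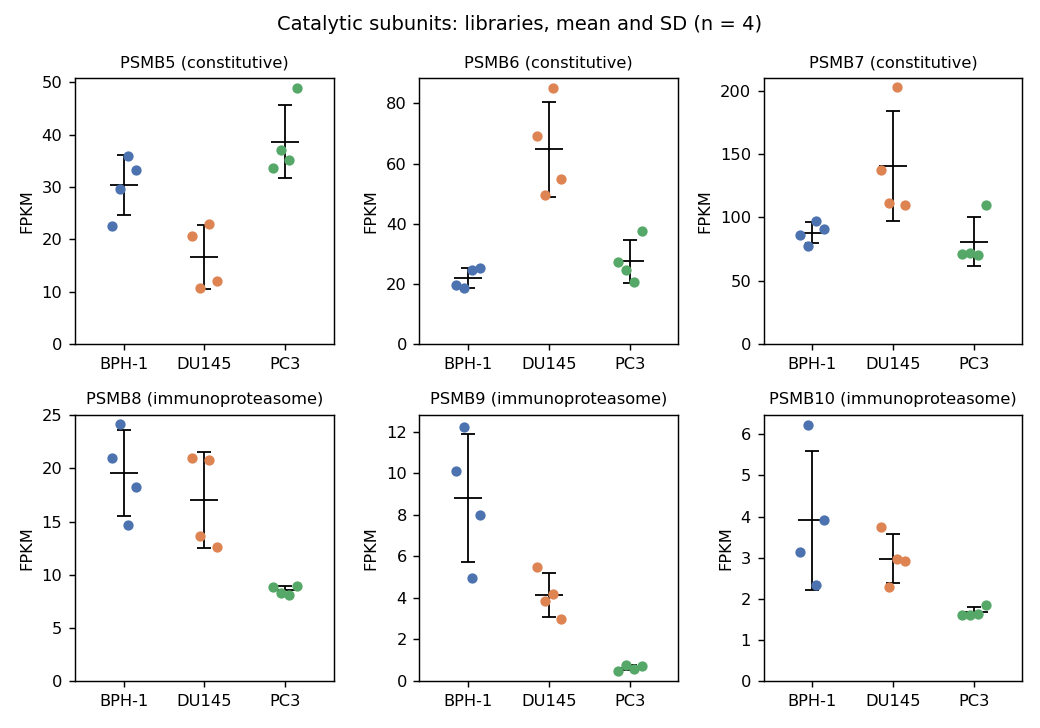
FPKM of the constitutive (upper row) and immunoproteasome (lower row) catalytic subunits in each library, with black bars for the mean and SD of 4 libraries per line. All PC3 points of PSMB8, PSMB9 and PSMB10 lie below those of BPH-1 and DU145, and all DU145 points of PSMB6 lie above those of the other lines.

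The constitutive catalytic subunits did not pass in PC3 against BPH-1 (0 of 3 by limma, where 64.1% of all genes passed, and 0 at an unadjusted p under 0.05 or by an exact permutation test per gene), though with upper-quartile scaling PSMB5 (0.73) and PSMB6 (0.67) were higher in PC3 and PSMB7 was lower with the same sum (-0.41), with trends on GC content and length divided out (-0.49) and with the libraries that stand apart left out (-0.29). All 3 passed in DU145 against BPH-1 as deposited (2 higher, 1 lower), where 59.3% of all genes passed. PSMB6, with caspase-like activity, had an FPKM of 69.4, 49.6, 85.01 and 55.02 in DU145, 19.6, 18.7, 24.7 and 25.2 in BPH-1 and 27.2, 24.8, 20.6 and 37.5 in PC3. DU145 lay above both other lines without overlap, and it passed against each in all 20 alternative fits (log2 fold change 1.49, standard error 0.20, limma adjusted p = 0.000193 for DU145 against BPH-1, and -1.21, standard error 0.23, for PC3 against DU145). PSMB5, with chymotrypsin-like activity, went the other way, at 20.6, 10.8, 22.9 and 12.1 FPKM in DU145, 22.6, 29.6, 35.9 and 33.3 in BPH-1 and 33.7, 37.01, 35.1 and 48.8 in PC3. The 2 lower DU145 libraries were replicates 2 and 4, and 1 DU145 library overlapped BPH-1. PSMB5 was higher in PC3 than in DU145 in all 20 alternative fits (log2 fold change 1.22, standard error 0.25, limma adjusted p = 0.00384), and lower in DU145 than in BPH-1 (log2 fold change -0.88, standard error 0.26, limma adjusted p = 0.0169), a call that was lost without BPH-1 replicate 3 (-0.80), with upper-quartile scaling (-0.60) and without DU145 replicates 2 and 4 (-0.44). PSMB7, with trypsin-like activity, was at 86.1, 77.3, 97.1 and 91.1 FPKM in BPH-1, 137, 112, 203 and 109.6 in DU145 and 71.5, 72.3, 70.2 and 109.7 in PC3. DU145 was above BPH-1 without overlap, with replicate 3 far the highest (log2 fold change 0.63, standard error 0.21, limma adjusted p = 0.0254), but that call was lost without BPH-1 replicate 1 (0.62), BPH-1 replicate 2 (0.57) or DU145 replicate 1 (0.62), with the GC trend divided out (0.34), with the same sum (0.38) and with median-of-ratios scaling (0.42).

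Within each library the FPKM of an immunoproteasome subunit was divided by that of the subunit it replaces. The percentages given are ratios of the FPKM themselves, which library scaling does not alter, while the tests used log2 ratios with 0.1 added to each FPKM, which scaling can alter where a level is low. The level of the ratio depends on the gene lengths used by the authors, while its difference between lines does not. A trend on GC content does not cancel where the paired genes differ in it, and the percentages were not corrected for it. GC content was 46.9% for PSMB9 and 54.5% for PSMB6. It was 53.8% for PSMB8 and 51.9% for PSMB5, and 60.1% for PSMB10 and 49.9% for PSMB7. PSMB9 was 42.2% ± 20.2 of PSMB6 in BPH-1, 6.52% ± 1.55 in DU145 and 2.39% ± 0.640 in PC3 (SD, n = 4). The 3 lines did not overlap in this ratio, and each pair of lines differed with an exact two-sided permutation p = 0.0286 (adjusted over 9 tests, 0.0429), the smallest that 4 against 4 libraries can give. Between PC3 and DU145 the percentages did not overlap with nothing added (1.77 to 3.03 and 4.93 to 7.93). The log2 difference was -1.28 with 0.1 added. With 1 added, which exceeds every PC3 value of PSMB9, it was -0.43 and no difference was detected (exact permutation p = 0.143). PSMB8 was 67.6% ± 23.8 of PSMB5 in BPH-1, 106% ± 15.3 in DU145 and 22.5% ± 3.21 in PC3, with PC3 below both others (exact permutation p = 0.0286, adjusted 0.0429, for each). DU145 and BPH-1 overlapped in it (exact permutation p = 0.0571, adjusted 0.0735). PSMB10 was 4.60% ± 2.44 of PSMB7 in BPH-1, 2.22% ± 0.592 in DU145 and 2.13% ± 0.298 in PC3. PC3 was below BPH-1 by a narrow gap between the highest PC3 library (2.33%) and the lowest BPH-1 library (2.39%) (exact permutation p = 0.0286, adjusted 0.0429), DU145 was not detectably so (exact permutation p = 0.0857, adjusted 0.0964), and PC3 and DU145 did not separate (p = 1). With 1 added in place of 0.1, PC3 against BPH-1 was not detectably different in this ratio (-0.67 on the log2 scale against -0.94, exact permutation p = 0.114). The lower PSMB9 ratio of DU145 against BPH-1 combines less PSMB9 with more PSMB6, whereas in PC3 the PSMB6 level was not detectably different from that of BPH-1 as deposited (log2 fold change 0.29, standard error 0.19, limma adjusted p = 0.204) but was higher with upper-quartile scaling, which does not alter the percentage. Without PC3 replicate 4, the PSMB8 ratio of PC3 against BPH-1 was -1.42 on the log2 scale against -1.52 with it, and the lines still did not overlap (exact permutation p = 0.0571). The PSMB10 ratio of PC3 against BPH-1 had the same p of 0.0571 by exact permutation without any 1 of the 4 PC3 libraries (-0.99 to -0.83 against -0.94 with all).

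**Figure D4:**
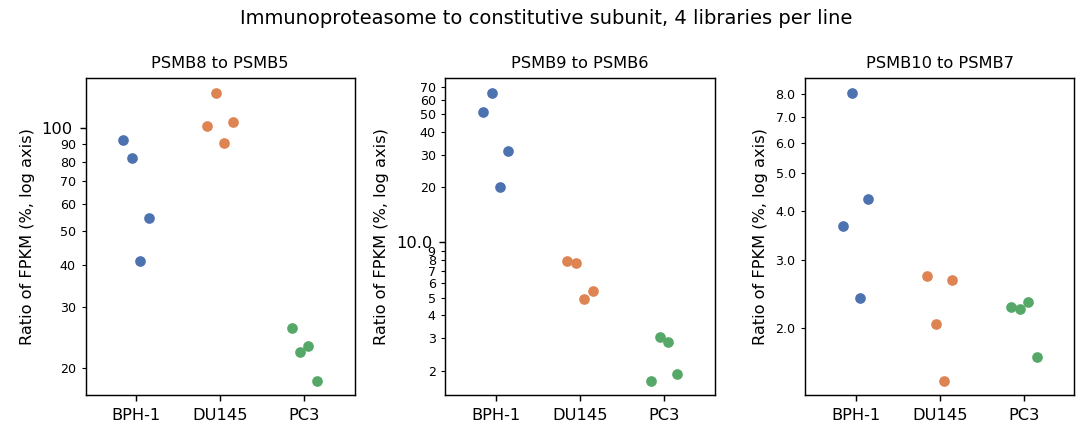
Ratio of FPKM of each immunoproteasome subunit to the constitutive subunit it replaces, in percent on a log axis, 1 point per library and 4 per line. PC3 lies lowest for PSMB8 to PSMB5 (18.3% to 26.1%) and PSMB9 to PSMB6 (1.77% to 3.03%), and overlaps DU145 for PSMB10 to PSMB7.

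The activators were lower than in BPH-1 in both cancer lines, 4 of 4 in PC3 and 3 of 4 in DU145, where 37.6% and 30.6% of all genes were lower. With upper-quartile scaling 2 of 4 were lower in PC3, PSME1 (-0.0011) and PSME3 (-0.32) no longer passing. PSME1 and PSME2 encode the alpha and beta chains of the interferon-inducible activator. PSME1 had an FPKM of 29.3, 39.3, 25.9 and 31.4 in BPH-1, 11.1, 8.77, 11.02 and 7.38 in DU145 and 25.6, 23.7, 23.9 and 21.2 in PC3. DU145 lay far below both other lines, 3.29-fold under BPH-1 in the mean (log2 fold change -1.62, standard error 0.18, limma adjusted p = 7.35e-05), and it was below PC3 (1.23 for PC3 against DU145, standard error 0.15) in all 20 alternative fits. The smaller difference between PC3 and BPH-1 (log2 fold change -0.39, standard error 0.13, limma adjusted p = 0.0307) was lost without BPH-1 replicate 2 (-0.28), BPH-1 replicate 4 (-0.38) or PC3 replicates 2, 3 or 4 (-0.34 to -0.39), and it passed in 10 of 19 alternative fits. PSME2 was 9.37, 10.2, 7.82 and 8.52 in BPH-1, 4.04, 2.6, 3.72 and 2.3 in DU145 and 4.83, 4.07, 4.79 and 5.6 in PC3. Both cancer lines lay below BPH-1 without overlap and in every alternative fit (log2 fold change -0.78, standard error 0.12, limma adjusted p = 0.000448 for PC3, and -1.28, standard error 0.18, for DU145). PSME2 has 2 pseudogenes in the table whose summed FPKM was 71.2% of its own in BPH-1, 75.3% in DU145 and 90.1% in PC3, and how reads that fit several places were counted is not stated.

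PSME3, the chain of a nuclear activator, was lower in PC3 than in BPH-1 (log2 fold change -0.68, standard error 0.15, limma adjusted p = 0.00338), at 6.04 to 10.2 FPKM against 13.1 to 14.8. Its DU145 values of 17.8, 14.6, 5.78 and 8.29 spanned those of BPH-1 and no difference was detected. PSME4 was lower in both lines as deposited (-1.40 in PC3 and -1.83 in DU145), with the uneven libraries given above, and the DU145 call was lost without DU145 replicate 1 (-1.49). With the GC trend divided out neither passed, at -0.44 and -0.91. PSMF1, which encodes an inhibitor of the core, was higher in PC3 than in BPH-1 (log2 fold change 0.42, standard error 0.12, limma adjusted p = 0.0146), at 9.73 to 14.2 FPKM against 8.38 to 9.52, a call lost with the same sum (0.17).

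Of the 7 alpha ring genes, 2 were higher, 3 lower and 2 did not pass in PC3 against BPH-1, where 26.5% of all genes were higher and 37.6% lower. In DU145 against BPH-1, 1 was higher, 4 lower and 2 did not pass, against 28.7% and 30.6% of all genes, and counts this small are no result about the ring. In PC3 against DU145 0 of the 7 passed by limma, against 3 at an unadjusted p under 0.05 and 1 (PSMA2) by an exact permutation test per gene. PSMA6 was higher in DU145, at 29.8, 30.05, 33.6 and 22.7 FPKM against 17.1, 19.6, 14.9 and 16.7 in BPH-1 (log2 fold change 0.72, standard error 0.16, limma adjusted p = 0.00388). This held in all 20 alternative fits, with a difference of 2.54 once the GC trend was divided out, but the gene shares 919 exon bases with AL121594.1 on the same strand and has 4 pseudogenes in the table, whose summed FPKM was 100.1% of that of PSMA6 in DU145 and 104% in BPH-1. PSMA1 was lower in DU145, at 4.43, 9.47, 4.2 and 8.28 against 12.5, 12.1, 10.6 and 14.2 (log2 fold change -0.88, standard error 0.25, limma adjusted p = 0.0131), also in all 20, with replicates 1 and 3 lowest. PSMA1 shares 814 exon bases with AC018523.2 on the same strand, which was at 1.76 FPKM in BPH-1 and 0.0663 in DU145. PSMA3, with the largest fall of the ring in DU145 (-1.29), was at 0.57 with the GC trend divided out, and in PC3 it went from -0.77 to 1.03. In DU145 the calls of PSMA2 and PSMA4 were lost without 2 (-0.37 to -0.35) and 5 (-0.62 to -0.45) of the 8 libraries in turn, and in PC3 those of PSMA6 without BPH-1 replicate 3 (0.28) and of PSMA7 without BPH-1 replicate 1 (0.46) or 2 (0.37). With the same sum both of the latter were lost as well (0.08 and 0.18), and PSMA7 was at 0.18 with the GC trend divided out. With that trend divided out PSMA4 in PC3 went from -0.87 to 0.04. PSMA7 was the most abundant alpha subunit in each line, at 78.1 ± 8.63 FPKM in BPH-1, 113 ± 35.9 in DU145 and 108 ± 22.1 in PC3 (SD, n = 4).

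Of the 4 structural beta subunits, 2 were higher in PC3 than in BPH-1 (26.5% of all genes) and 1 in DU145 than in BPH-1 (28.7% of all genes), and none was lower, against 37.6% and 30.6% of all genes. PSMB4 accounted for the call in DU145, at 54.5, 40.01, 61.8 and 37.4 FPKM against 20.3, 18.1, 20.9 and 21.2 in BPH-1 (log2 fold change 1.20, standard error 0.18, limma adjusted p = 0.000446). The lowest DU145 library was above the highest of BPH-1, in all 20 alternative fits. In PC3 it was 25.9, 23.4, 27.2 and 37.3 (log2 fold change 0.46, standard error 0.14, limma adjusted p = 0.0205), a call lost without BPH-1 replicate 2 (0.41) and with the same sum (0.20). PSMB1 was higher in PC3 (log2 fold change 0.46, standard error 0.11, limma adjusted p = 0.0070), where its libraries ranged from 68.8 to 95.7 FPKM against 54.2 to 57.8 in BPH-1, and did not pass with the same sum (0.19).

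Of the 6 ATPases of the 19S base, 1 was higher and 1 lower in PC3 than in BPH-1 (26.5% and 37.6% of all genes), and 2 were higher and 2 lower in DU145, near the 28.7% and 30.6% of all genes. PSMC5 was higher in both cancer lines, at 31.4, 22.3, 24.4 and 39.1 FPKM in PC3, 38.2, 30.6, 39.2 and 26.6 in DU145 and 18.6, 10.4, 17.2 and 17.8 in BPH-1. Neither cancer line overlapped BPH-1 (log2 fold change 0.83, standard error 0.23, limma adjusted p = 0.0107 for PC3, in 18 of 19 alternative fits, all but the same sum at 0.57, and 1.04, standard error 0.22, for DU145, in 20 of 20). PSMC5 shares 874 exon bases with FTSJ3 on the other strand, a gene at 18.3 FPKM in BPH-1, 18.2 in DU145 and 37.7 in PC3. PSMC6, the least abundant ATPase, was lower in both, at 0.566, 1.78, 0.437 and 1.13 in DU145 and 3.08, 3.34, 1.62 and 1.67 in PC3 against 5.91, 4.78, 6.45 and 6.17 in BPH-1. The fall in DU145 held in all 19 alternative fits it entered (log2 fold change -1.83, standard error 0.22, limma adjusted p = 9.76e-05), at -0.67 with the GC trend and -0.84 with GC and length trends divided out, and that in PC3 (-1.03) became 0.26 with the GC trend divided out. PSMC1 was lower in DU145 (log2 fold change -0.61, standard error 0.14, limma adjusted p = 0.00534), but its 13 pseudogenes in the table summed to 96.9 FPKM there against 3.72 for the gene itself, so the reads of PSMC1 are uncertain, and it did not pass with upper-quartile scaling (-0.37). PSMC4 was higher in DU145 (0.59), a call lost without any of 6 libraries (0.43 to 0.66), with the GC trend divided out (0.11) and with the same sum (0.35).

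The ubiquitin receptor PSMD4 and the scaffold subunits PSMD1 and PSMD2 are the other members in the base, and each had its own pattern. PSMD4 had an FPKM of 70.9, 56.1, 86.4 and 57.7 in DU145, 24.9, 21.8, 19.5 and 25.4 in BPH-1 and 22.4, 23.3, 20.6 and 31.8 in PC3. DU145 was higher than both without overlap (log2 fold change 1.51, standard error 0.18, limma adjusted p = 8.67e-05 against BPH-1), and PC3 did not differ detectably from BPH-1 (log2 fold change 0.08, standard error 0.15, limma adjusted p = 0.64). PSMD2 was higher in PC3, at 55.8, 51.9, 49.5 and 78.8 against 39.5, 31.99, 33.9 and 35.3 in BPH-1 (log2 fold change 0.71, standard error 0.15, limma adjusted p = 0.00331), in all 19 alternative fits. PSMD1 was lower in DU145, at 7.79, 20.8, 4.95 and 14.8 against 30.7, 26.3, 32.9 and 30.02 in BPH-1 (log2 fold change -1.42, standard error 0.36, limma adjusted p = 0.00798), in all 20. Its DU145 values were unequal, replicates 1 and 3 being lower than replicates 2 and 4. PC3 libraries, at 26.6, 26.8, 25.9 and 21.4, lay above all 4 of DU145 (log2 fold change 1.17, standard error 0.37, limma adjusted p = 0.0282), a call lost without DU145 replicate 1 (1.04) or PC3 replicate 1, 2 or 3 (1.14 to 1.16). The gene overlaps HTR2B, listed at 0.0160 FPKM or less on average in each line, by 559 exon bases.

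**Figure D5:**
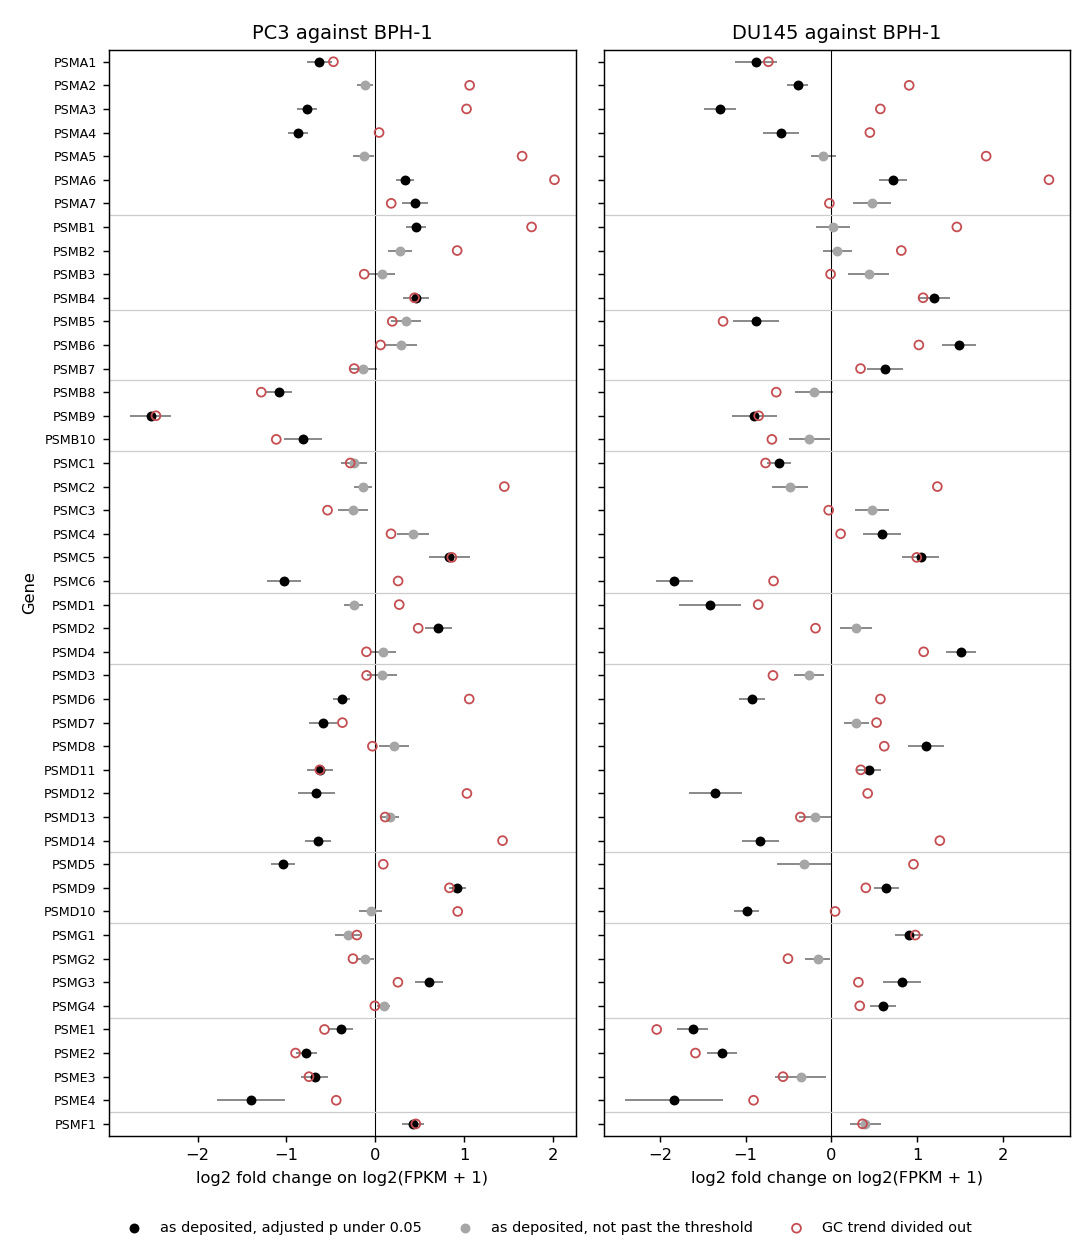
Points give the log2 fold change on log2(FPKM + 1) of each gene against BPH-1 with its standard error (PC3 left, DU145 right, 4 libraries per line), black where the limma adjusted p is under 0.05, and open red circles give the value with the GC trend divided out. PSMB9 (-2.53 and -2.47 in PC3) and PSMD9 (0.92 and 0.83 in PC3) hardly move, while PSMD14 goes from -0.64 to 1.43 in PC3.

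In the 19S lid, 5 of 8 genes were lower in PC3 than in BPH-1 as deposited, where 37.6% of all genes were lower, and none higher, while in DU145 2 were higher and 3 lower (28.7% and 30.6% of all genes). With upper-quartile scaling none of the 5 passed (-0.29 to -0.04) and PSMD8 (0.60) and PSMD13 (0.52) were higher in PC3. Of the 5, 3 changed sign with the GC trend divided out, as PSMD6 (-0.38), PSMD12 (-0.66) and PSMD14 (-0.64), the deubiquitinase of the lid, turned to 1.06, 1.03 and 1.43. The same 3 genes turned in DU145, from -0.92, -1.35 and -0.83 to 0.57, 0.42 and 1.27. PSMD12 in PC3 also lost its call without BPH-1 replicate 3 (-0.56) or PC3 replicate 3 (-0.62). PSMD11, a scaffold subunit of the lid, was at 15.5, 14.1, 15.5 and 20.8 FPKM in PC3, 26.6, 20.97, 29.9 and 26.3 in BPH-1 and 34.96, 39.1, 32.4 and 34.5 in DU145. The 3 lines did not overlap, with PC3 lowest and DU145 highest (log2 fold change -1.06, standard error 0.15, limma adjusted p = 0.000363 for PC3 against DU145). Its call in DU145 against BPH-1 (0.44) was lost without any of 5 libraries (0.34 to 0.45), with the GC trend divided out (0.34) and with the same sum (0.19). PSMD7, the partner of PSMD14, was lower in PC3 than in DU145 (log2 fold change -0.89, standard error 0.14, limma adjusted p = 0.000922), at 16.8 to 23.9 FPKM against 36.2 to 38.2. PSMD8 was higher in DU145, at 66.1, 44.2, 84.9 and 46.9 against 25.8, 25.2, 27.4 and 28.7 in BPH-1 (log2 fold change 1.10, standard error 0.21, limma adjusted p = 0.00167), in all 20 alternative fits. PSMD3 and PSMD13 did not pass in any of the 3 comparisons as deposited.

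Chaperones that assemble the particle are not part of the finished proteasome. Among those of the 19S base, PSMD9 was higher in both cancer lines, at 3.78, 3.27, 3.49 and 4.27 FPKM in PC3, 3.21, 2.4, 3.64 and 2.29 in DU145 and 1.58, 1.45, 1.43 and 1.43 in BPH-1. Every library of PC3 and DU145 exceeded every library of BPH-1 (log2 fold change 0.92, standard error 0.09, limma adjusted p = 4.62e-05 for PC3, and 0.64, standard error 0.15, for DU145), in all 19 and 20 alternative fits. PSMD9 shares 436 exon bases with WDR66 and 1307 with AC069503.2 on the same strand, with means of at most 1.08 and 0.109 FPKM. PSMD10, also known as gankyrin, was lower in DU145 (2.56, 2.37, 1.78 and 2.92) than in PC3 (5.79, 6.22, 5.94 and 4.17), in all 20 alternative fits (log2 fold change 0.94, standard error 0.17, limma adjusted p = 0.00157). Its fall against BPH-1 (-0.99 in DU145) became 0.04 with the GC trend divided out. PSMD5 was lower in PC3 (log2 fold change -1.04, standard error 0.13, limma adjusted p = 0.000146) and at 0.09 with that trend divided out.

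Of the 4 chaperones of the core particle, 3 were higher in DU145 than in BPH-1 (28.7% of all genes) and 1 in PC3 than in BPH-1, near the 26.5% of all genes. PSMG1, which pairs with PSMG2 to hold the alpha ring, was at 38.7, 32.8, 45.3 and 32.1 FPKM in DU145, 22.3, 17.7, 20.7 and 16.5 in BPH-1 and 15.7, 13.4, 13.4 and 19.1 in PC3. DU145 was above both (log2 fold change 0.91, standard error 0.17, limma adjusted p = 0.00129 against BPH-1, and -1.22, standard error 0.17, for PC3 against DU145), in all 20 alternative fits. PSMG2 did not pass in any comparison as deposited, with means from 5.38 to 6.1 FPKM. PSMG4 was at 1.81 to 3.07 in DU145 against 1.14 to 1.28 in BPH-1 (log2 fold change 0.60, standard error 0.15, limma adjusted p = 0.00638). It shares 1388 exon bases with SLC22A23 and 174 with TUBB2B, both on the other strand. SLC22A23 was at 1.51 FPKM in BPH-1, 0.503 in DU145 and 1.02 in PC3. TUBB2B was at 3.45 FPKM in BPH-1, 7.85 in DU145 and 0.111 in PC3. PSMG3, the partner of PSMG4, was higher in PC3 (0.60) and in DU145 (0.82), at 0.25 and 0.32 with the GC trend divided out, when neither passed.

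Over the whole set, 23 of the 48 members share exon bases with another annotated gene, 17 of them with a protein-coding gene, and 12 have pseudogenes in the table. In bulk RNA a lower level in each cell and expression in fewer cells cannot be told apart.

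A list of 22 other genes of the pathway (ubiquitin receptors, shuttle factors, deubiquitinases, assembly factors and transcriptional regulators) was tested alongside. In PC3 against BPH-1, 6 of the 22 were higher and 12 lower (median -0.52 against -0.11 over all genes, of which 26.5% were higher and 37.6% lower). With the GC trend divided out, 9 were higher and 8 lower (median -0.05). In DU145 against BPH-1, 4 were higher and 5 lower (median -0.39), against 28.7% and 30.6% of all genes. The split was 10 and 2 with the GC trend divided out, and the median changed sign (0.18). In PC3 against DU145, 2 were higher and 2 lower (median -0.22), against 19.3% and 26.5% of all genes, and 4 and 7 with that trend divided out. These counts also moved with the scaling and the libraries used. With upper-quartile scaling DU145 had 7 higher and 4 lower than BPH-1 (median -0.15). Without DU145 replicates 2 and 4 DU145 had 7 higher and 12 lower than BPH-1 (median -0.41), and PC3 had 4 higher and 4 lower than DU145. Without DU145 replicates 1 and 3 and PC3 replicate 4, PC3 had 2 higher and 11 lower than DU145. With the same libraries left out DU145 had 6 higher and 5 lower than BPH-1 (median 0.03). UBQLN2, a shuttle factor, was lower in both cancer lines, at 5.55 ± 0.705, 7.02 ± 2.83 and 24.5 ± 1.33 FPKM in PC3, DU145 and BPH-1 (SD, n = 4). The deubiquitinase gene UCHL5 was at 1.28 ± 0.413 in PC3, 2.42 ± 1.05 in DU145 and 9.34 ± 0.827 in BPH-1, and with the GC trend divided out the difference passed in PC3 but not in DU145. NFE2L1, a transcription factor of proteasome genes, did not pass in any comparison as deposited, but with upper-quartile scaling it was higher in PC3 (0.84) and DU145 (0.96) than in BPH-1. DDI2, the protease that activates NFE2L1, was at 1.8 ± 1.24, 2.36 ± 2.22 and 10.98 ± 1.02 FPKM in PC3, DU145 and BPH-1, lower in both cancer lines (limma adjusted p = 0.000302 and 0.0033).

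Genes that act with the immunoproteasome in antigen presentation, and their interferon regulators, formed a list of 9. In PC3 against BPH-1, 8 of the 9 were lower, but NLRC5 passed the filter on low values only through BPH-1 and could only be lower. Of the other 8, 7 were lower and none higher (median -0.89 against -0.11 over all genes, of which 37.6% were lower), and with the GC trend divided out ERAP1, a peptidase that trims presented peptides, was higher and 6 were lower. In DU145 against BPH-1, 2 were lower and none higher (median -0.18, with 30.6% of all genes lower), and 4 were lower and 1 higher with the GC trend divided out, and 3 were lower and 1 higher without DU145 replicates 2 and 4. In PC3 against DU145, 4 of the 8 tested were lower and none higher (median -0.59, with 26.5% of all genes lower), likewise with that trend divided out, and 6 were lower without DU145 replicates 1 and 3 and PC3 replicate 4. IRF1, a transcription factor that drives PSMB9 and TAP1, had a mean of 1.28 ± 0.301 FPKM in PC3, 5.21 ± 1.37 in DU145 and 5.27 ± 0.446 in BPH-1. PC3 was lower than BPH-1 (log2 fold change -1.46, limma adjusted p = 1.23e-05) and than DU145 (-1.43, limma adjusted p = 0.000272), while DU145 did not differ detectably from BPH-1 as deposited (-0.04, limma adjusted p = 0.885) and was lower with the GC trend divided out (-0.39, limma adjusted p = 0.0234). TAP1 followed with 9.26 ± 1.79, 22.6 ± 5.43 and 18.03 ± 2.79 FPKM in PC3, DU145 and BPH-1. NLRC5, the activator of class I genes, was at 0.0188 ± 0.011 in PC3 and 0.856 ± 0.226 in BPH-1. B2M, the light chain of class I molecules, did not pass in any comparison as deposited.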

How the data were processed

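RNA sequencing libraries of BPH-1, DU145 and PC3 (4 each) were analysed from 1 deposited table of FPKM values, a unit not named in the file and taken from the values. Total RNA was extracted with TRIzol and chloroform and made into Illumina libraries. The submitters' processing notes name CASAVA 1.8, HISAT2 2.1.0, edgeR and the GRCh38 build. The counting program, strand use and the treatment of reads that fit several places are not given in the sources used here.

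Low FPKM values were whole multiples of 1 read when lengths were summed over distinct exons (91.9% to 93.5% of values within 0.01 of a whole read, against 16.1% to 20.2% with merged exons), which gave depths of 12950667 to 16309559 reads and 26 to 11717 reads per library for the genes tested other than PSMB8 and PSMD11. The other 46 of the 48 genes gave whole reads within 0.05 in all libraries, and these 2 did not. Floors of 3 reads cover counting error only. Gene coordinates are those of the table, which match GENCODE 29 (GRCh38) at 56567 genes.

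Genes with FPKM of at least 0.5 in at least 4 of the 8 libraries compared were tested on log2(FPKM + 1) with limma 3.58.1 (trend on, R 4.3.3) in a fit of the 2 lines compared, with Benjamini-Hochberg adjustment over all genes tested and a threshold of 0.05. The added 1 makes fold changes of weakly expressed genes too small. Ratios within a library used FPKM + 0.1 and exact two-sided permutation tests. Alternatives were other filters, pseudocounts and scalings, a GC trend (spline with 5 degrees of freedom, fitted on genes with at least 50 mean reads) divided out of each library, a replicate block, 1 fit over 3 lines, other call rules and leaving out each library. Of these, 3 were chosen after seeing the data: trends on GC content and length together, leaving out DU145 replicates 1 and 3 with PC3 replicate 4, and leaving out DU145 replicates 2 and 4. Counts of alternative fits passed leave out the other call rules. The design had foreseen read counts as a possible unit, and the FPKM test was used. Scripts (Python 3.11.15, pandas 2.3.3, numpy 2.4.6, matplotlib 3.10.9) were tested on simulated data. Without a GC trend, 13% to 25.3% of 1.5-fold and 69.8% to 96% of 2-fold changes were recovered. Unchanged genes made up 5.8% to 15.5% of those calls. With a GC trend simulated in 1 line they made up 96.9% to 97.5%, and 5.6% to 14.3% once it was divided out. The size of the simulated trend was set and not taken from these data.

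The genes, lists and tests were chosen with earlier results of these data known. By the rule for named genes, all members are accounted for by role, and values in every library are given for the catalytic and tissue-restricted subunits, PSME1, PSME2 and, in each comparison, the 3 largest rises and 3 largest falls among called genes whose groups do not overlap. Per-library values of other members and the list genes named were chosen after their values were seen. No 2 libraries agreed within sampling noise. Some genes of the lists are counted but not reported by name here.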

Additional observations from a re-analysis of the deposited data

Results flagged for a closer look

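Among 138 groups of 4 libraries above the floor of 3 reads, examined gene by gene, 11 had a library whose gap to its nearest neighbour exceeded Dixon's 95% critical value as a share of the group's range, where chance gives about 5% of groups. In 10 of these the library was PC3 replicate 4, which stood above the other 3 PC3 libraries. In the alpha ring it had an FPKM of 8.4 for PSMA2 (others 7.02 to 7.25), 18.95 for PSMA5 (14.7 to 15.1), 23.9 for PSMA6 (20.9 to 21.4) and 140.9 for PSMA7 (94.4 to 99.3). Among beta subunits it had 42.0 for PSMB3 (27.0 to 28.8), 109.7 for PSMB7 (70.2 to 72.3) and 1.85 for PSMB10 (1.61 to 1.64). In the 19S particle it had 6.86 for PSMC1 (4.40 to 4.82), 59.5 for PSMC4 (38.1 to 39.8) and 45.1 for PSMD8 (25.4 to 28.7). The remaining library was BPH-1 replicate 1, with 1.58 for PSMD9 (1.43 to 1.45). PSMB11, at 0.0732 in PC3 replicate 4 and 0 in the others, lies under the floor, and its gap fills the range because the others are 0, which says nothing about that library.

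PSMD11, a lid subunit, was the 1 gene that passed in opposite directions against the shared BPH-1 libraries and also passed between the cancer lines. Its log2 fold change was -0.63 in PC3 and 0.44 in DU145, and the difference between them, tested by limma as PC3 against DU145, was -1.06. The search was narrowed to genes of this kind.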

How the results depend on the processing

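Counts of genes past the threshold moved as follows by more than 1.5 times. In PC3 against BPH-1 the 9 higher became 2 with the same sum, 16 with upper-quartile scaling, 16 with the GC trend and 16 with GC and length trends divided out, and 0 with an absolute log2 fold change over 1. The 17 lower became 26 with the same sum, 9 with upper-quartile scaling, 9 with the GC trend divided out and 5 with an absolute log2 fold change over 1. In DU145 against BPH-1 the latter left 5 of 13 higher and 7 of 16 lower. In PC3 against DU145 the 7 higher became 4 without a filter, 11 with the GC trend and 14 with both trends divided out, 12 with DU145 replicates 1 and 3 and PC3 replicate 4 left out, 11 with DU145 replicates 2 and 4 left out and 3 with an absolute log2 fold change over 1, and the 13 lower became 7 with upper-quartile scaling and 5 with that fold limit. Leaving out each library in turn gave 7 to 9 higher and 15 to 20 lower, 10 to 16 and 13 to 17, and 4 to 8 and 8 to 14 in the same order of comparisons. The cause of these shifts was not tested, except that left-out libraries make fewer samples and a fold limit asks for more.

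The replicate numbers did not pair the samples, with correlations of same-numbered samples from -0.61 to 0.46, and with a replicate block 10 genes were higher and 16 lower in PC3 against BPH-1, 12 and 14 in DU145 against BPH-1, and 5 and 9 in PC3 against DU145. Genes that passed without the block and not with it were PSME1 in PC3 against BPH-1, PSMA2, PSMA4 and PSMD11 in DU145 against BPH-1, and PSMB4, PSMB7, PSMC3, PSMD6, PSMG4 and PSME2 in PC3 against DU145. For the ratios a replicate block gives the same difference, and 4 pairs cannot go below p = 0.125 in an exact permutation test.

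Of the ratios, PSMB9 to PSMB6 in PC3 against DU145 was -0.43 with FPKM + 1 (exact permutation p = 0.143), and PSMB10 to PSMB7 in PC3 against BPH-1 was -0.67 (exact permutation p = 0.114). With the libraries that stand apart left out, PC3 against BPH-1 gave -1.42 for PSMB8 to PSMB5 and -0.83 for PSMB10 to PSMB7. Over single libraries left out, PSMB8 to PSMB5 ranged from -1.73 to -1.34 in PC3 against BPH-1 and from 0.49 to 0.88 in DU145 against BPH-1, where it passed without BPH-1 replicate 1. PSMB10 to PSMB7 ranged from -1.20 to -0.63 in PC3 against BPH-1 and from -1.20 to -0.63 in DU145 against BPH-1, where it passed without BPH-1 replicate 3.

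Single genes that passed in either fit changed sign in 45 cases, all with the GC trend or with GC and length trends divided out, which also removes real differences that follow GC content. Log2 fold changes with the 2 corrections in PC3 against BPH-1 were 1.06 and 1.03 for PSMA2, 1.03 and 0.76 for PSMA3, 0.042 and 0.035 for PSMA4, 1.65 and 1.56 for PSMA5, 1.45 and 1.32 for PSMC2, 0.26 and 0.14 for PSMC6, 1.06 and 1.03 for PSMD6, 1.03 and 0.99 for PSMD12, 1.43 and 1.40 for PSMD14, 0.089 and 0.0062 for PSMD5, and 0.93 and 0.74 for PSMD10, and with both trends -0.042 for PSMA7 and -0.42 for PSMB3. In DU145 against BPH-1 they were 0.91 and 0.89 for PSMA2, 0.57 and 0.25 for PSMA3, 0.45 and 0.47 for PSMA4, 1.81 and 1.69 for PSMA5, 1.24 and 1.02 for PSMC2, 0.57 and 0.57 for PSMD6, 0.42 and 0.40 for PSMD12, 1.27 and 1.25 for PSMD14, and 0.96 and 0.83 for PSMD5, with 0.044 for PSMD10 with the GC trend alone and -0.056 for PSMC4 with both. In PC3 against DU145 PSMA7 was 0.28 with both.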
